A study of Mus musculus with 4 samples.

Results

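The replication-dependent histone genes are the members of the mouse clusters and small loci whose symbols begin with Hist1h, Hist2h, Hist3h or Hist4h. All 64 rows with such a symbol were taken, out of 16338 rows for all genes, and sorted by the symbol into 5 genes of the linker histone H1, 17 of H2A, 17 of H2B, 12 of H3 and 13 of H4. Their RNA was measured by RNA sequencing in T cells that carried the TCR named TRP1high or the one named TRP1low. The cells had been stimulated for 48 h by B cells pulsed with the peptide M9 or K8 and were then sorted by flow cytometry from the co-culture. The 4 groups were TRP1high with M9, TRP1high with K8, TRP1low with M9 and TRP1low with K8, with 1 library each, so no value has a replicate. The series concerns CD8 T cells and altered binding of tumour antigen peptides to MHC class I. Mouse strain and age, and where the B cells came from, are not stated by the labels.

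In dividing cells these genes supply the histones that package newly copied DNA. H2A, H2B, H3 and H4 form the core of the nucleosome, and H1 binds the linker DNA between cores. Their transcription is tied to S phase, and most of their mRNAs carry no poly(A) tail: they end just after a conserved stem-loop that is bound by the protein SLBP. Whether poly(A) selection was used is not given in the sources used here. In sorted bulk RNA, fewer cells in S phase and less histone RNA per such cell cannot be told apart.

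The stem-loop is the shared element by which these mRNAs are processed, so its forms are shown. A search was made for 6 bases starting with GG, a loop of 4 starting with TTT, and the 6 bases complementary to the first 6. It found the stem-loop in annotated transcripts of 42 of the 64 genes (3 of 5 H1, 10 of 17 H2A, 10 of 17 H2B, 8 of 12 H3 and 11 of 13 H4). That search took in whole transcripts. In the last 200 bases alone, the letters lay in a transcript of 26 of 21901 protein-coding genes (0.119%), and 24 of these 26 are among the 64. GENCODE M21 (GRCm38, mm10) gave the sequences below, 5′ to 3′ on the strand of the gene, with the 2 arms of the stem in capitals.
Hist1h2bj (H2B), chr13:22043633-22043658, plus strand: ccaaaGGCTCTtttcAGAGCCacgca
Hist1h3c (H3), chr13:23745042-23745067, minus strand: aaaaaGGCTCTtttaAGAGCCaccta
Hist1h4d (H4), chr13:23581945-23581970, plus strand: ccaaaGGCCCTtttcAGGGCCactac
Hist1h4i (H4), chr13:22040961-22040986, minus strand: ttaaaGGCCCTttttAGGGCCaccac
Hist1h4b (H4), chr13:23757361-23757386, plus strand: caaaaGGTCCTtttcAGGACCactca
The arms written for Hist1h2bj, with the loop tttc, occurred in 25 genes of H1, H2A, H2B and H3. Each of the 11 H4 stem-loops had other arms, those of Hist1h4d and Hist1h4i in 9 genes and those of Hist1h4b in 2.

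The genes lay close together and resembled each other. A stretch of chr13:21715763-22043676 held 24 of them, chr13:23531050-23764406 held 28 and chr3:96220361-96270132 held 8. The 62 genes annotated as coding encoded 27 distinct proteins, namely 5 of H1, 7 of H2A, 11 of H2B, 3 of H3 and 1 of H4. The H2A genes Hist1h2aj and Hist1h2al are annotated as pseudogenes in that release. A near-identical copy, meaning another member with the same protein or with at least 95% transcript identity, existed for 54 of the 64 genes: none of the 5 H1 genes, 16 of 17 H2A, 14 of 17 H2B, 11 of 12 H3 and 13 of 13 H4. The share of a gene's 31-base words that occur in no other gene had a median of 96.1% in H1, 18.1% in H2A, 41.5% in H2B, 36.9% in H3 and 52.1% in H4. Reads from the shared stretches can be split between copies by the authors' quantification. The value of a single gene with few words of its own is therefore uncertain, and class sums are given first. Class sums keep part of this limit, as some words also occur in genes outside the 64. That share was 53.4% in Hist1h2ai, 37.0% in Hist1h2bl and 80.6% in Hist2h3b, but 0% in Hist1h4k.

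How alike the copies are is shown by the first 60 coding bases of 4 H2A genes that encode the same protein. Capitals mark the 3 positions at which the 4 genes are not all the same, and over all 393 coding bases there were 7 such positions.
Hist1h2ao, chr13:21810467-21810526, plus strand: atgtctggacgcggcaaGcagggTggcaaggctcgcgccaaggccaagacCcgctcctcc
Hist1h2ap, chr13:21833416-21833475, minus strand: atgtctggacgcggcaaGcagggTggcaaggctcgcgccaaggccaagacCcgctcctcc
Hist1h2ai, chr13:21716422-21716481, plus strand: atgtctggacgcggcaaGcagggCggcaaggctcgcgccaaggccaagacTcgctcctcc
Hist1h2ag, chr13:22042868-22042927, minus strand: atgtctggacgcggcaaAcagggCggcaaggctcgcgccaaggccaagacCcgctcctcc
The coding sequences of Hist1h2ao and Hist1h2ap differed at 0 bases.

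The deposited values are log2 of the normalized count plus 1, where a normalized count is an estimated read count divided by a factor for its library. One read was worth 0.989, 0.998, 1.05 and 1.37 normalized counts in TRP1high with M9, TRP1high with K8, TRP1low with M9 and TRP1low with K8, and in that order the libraries held 41.5, 40.5, 40.3 and 29.6 M estimated reads. The 7 CD8 T cell markers were detected in every library. Transcripts of B cells, the other cells of the culture, differed between libraries: 12 B cell marker genes summed to 155 normalized counts in TRP1high with M9 and 1995 in TRP1high with K8, and to 378 in TRP1low with M9 and 1343 in TRP1low with K8. Pax5, Cr2 and Fcrla were among those at 0 in TRP1high with M9, and Cr2 was at 0 in TRP1low with M9. The 12 genes did not all go with their sums. In TRP1high cells all 12 were at least 2-fold lower with M9 than with K8. In TRP1low cells 6 were at least 2-fold lower with M9 and 2 at least 2-fold higher. With M9, 8 were at least 2-fold lower in TRP1high than in TRP1low cells and 1 was at least 2-fold higher. The 3 measured erythroid markers summed to 339 normalized counts in TRP1low with K8 and to at most 9.46 in the other libraries. For the 3 measured myeloid markers these sums were 63.5 and at most 11.8. Cd4, a marker of CD4 T cells, had 0 and 2.12 normalized counts in TRP1high cells with M9 and K8, and 18.3 and 25.5 in TRP1low cells. The part of these other cells in the histone values was not tested.

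Histone RNA was highest in TRP1low cells stimulated with M9. The 64 genes summed to 5344 normalized counts in TRP1high with M9 and 5720 in TRP1high with K8, and to 9748 in TRP1low with M9 and 6819 in TRP1low with K8. In the same order, these were 130.0, 141.5, 230.3 and 168.3 reads per M estimated reads. Of the 64 genes, 48 had their highest value in TRP1low with M9, where 22.2% of the 16102 genes tested had theirs, and 1 had its lowest there, against 17.8% of genes tested. The lowest value fell in TRP1low with K8 for 24 genes, in TRP1high with M9 for 21 and in TRP1high with K8 for 18, where 31.6%, 30.2% and 20.4% of all genes tested had theirs. By class, TRP1low with M9 was the highest library for 4 of 5 H1, 11 of 17 H2A, 11 of 17 H2B, 11 of 12 H3 and 11 of 13 H4 genes. Among the 23 genes with at least 50% of their 31-base words to themselves, the count was 15.

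**Figure D1:**
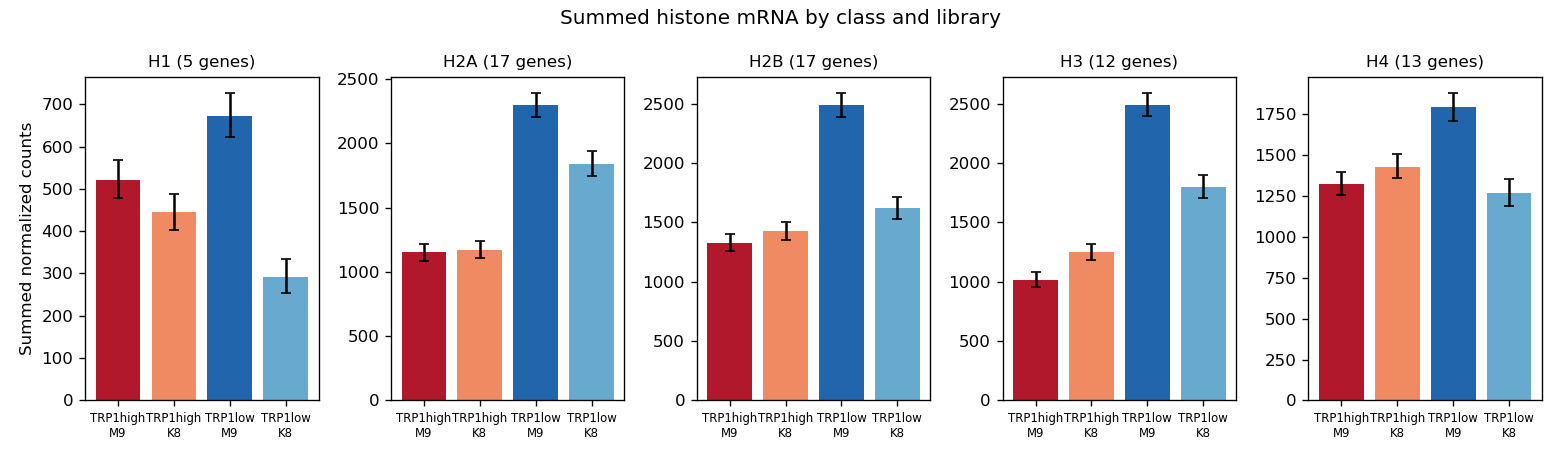
Summed normalized counts (linear axis from 0) of the histone genes of each class in the 4 libraries, with 1 library per bar. Error bars are exact 95% Poisson intervals and cover counting error only; the TRP1low M9 bar is the tallest in each of the 5 panels, and the TRP1low K8 bar is the lowest in H1 and H4.

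In TRP1low cells, histone RNA was higher with M9 than with K8 in all 5 class sums. The sum over the 64 genes was 1.43-fold higher with M9, a log2 ratio of 0.52 with a 95% counting interval of 0.47 to 0.57. The class sums gave log2 ratios of 1.21 for H1, 0.32 for H2A, 0.62 for H2B, 0.47 for H3 and 0.50 for H4. Of the 64 genes, 21 lay at least 2-fold apart with 10 normalized counts or more in 1 of the pair, 20 higher with M9 and 1 lower. Over all 16102 genes tested, 15.1% lay that far apart, 7.67% higher and 7.43% lower. The minimum was reached by 63 of the 64, of which 53 were above 0, as were 51.6% of all genes that reached the minimum. Their median log2 difference was 0.64, beside 0.02 for all genes tested. The genes 2-fold higher were 3 of H1, 2 of H2A, 6 of H2B, 4 of H3 and 5 of H4.

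In TRP1high cells the peptides differed little. The sum over the 64 genes had a log2 ratio of -0.10 for M9 over K8, with a counting interval of -0.15 to -0.04. By class it was 0.23 for H1, -0.02 for H2A, -0.10 for H2B, -0.29 for H3 and -0.11 for H4, and the H4 ratio was 0.044 without Hist1h4i. Of the 64 genes, 6 were higher with M9 and 6 lower by 2-fold or more, against 5.14% and 4.73% of all genes tested (9.87% in all). Above 0 were 32 of the 60 that reached the minimum, and 46.5% of all genes that reached the minimum. Their median log2 difference was 0.04, and that of all genes was -0.03.

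With M9, the histone sum was 1.82-fold lower in TRP1high than in TRP1low cells, a log2 ratio of -0.87 with a counting interval of -0.92 to -0.82. It was -0.19 for the sum of the 23 genes with at least 50% of their 31-base words to themselves. H3 stood lowest at -1.29, followed by H2A at -0.996, H2B at -0.91, H4 at -0.44 and H1 at -0.37. The intervals of H4, -0.54 to -0.33, and of H1, -0.54 to -0.20, overlapped. That of H3, -1.40 to -1.19, lay below those of the other 4 classes. Without the gene with the most counts in each class, the classes lay closer together. The log2 ratios were then -1.17 for H3, -0.98 for H2B, -0.92 for H2A, -0.80 for H4 and -0.65 for H1. All 64 genes reached 10 normalized counts, and 28 were at least 2-fold lower and 1 at least 2-fold higher in TRP1high cells, beside 5.58% and 7.37% of all genes tested (12.9% in all). Below 0 were 56 of the 64 and above 0 were 8, against 46.5% above 0 among all genes that reached the minimum. Their median log2 difference was -0.95, that of all genes -0.04. The single gene that was higher was Hist1h2an, an H2A gene named here after its value was seen, with 57.4 normalized counts in TRP1high and 16.8 in TRP1low cells with M9. With K8 the log2 ratio for TRP1high over TRP1low was -0.25 over the 64 genes but 0.48 over those 23, and the classes went in both directions: 0.61 for H1, -0.65 for H2A, -0.18 for H2B, -0.53 for H3 and 0.17 for H4. The H4 value became -0.33 without Hist1h4i. With K8, 7 of the 64 genes were at least 2-fold higher and 9 at least 2-fold lower in TRP1high cells, against 10.6% and 8.35% of all genes tested (18.9% in all). Above 0 were 25 of the 59 that reached the minimum, and 47.4% of all genes that reached the minimum.

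**Figure D2:**
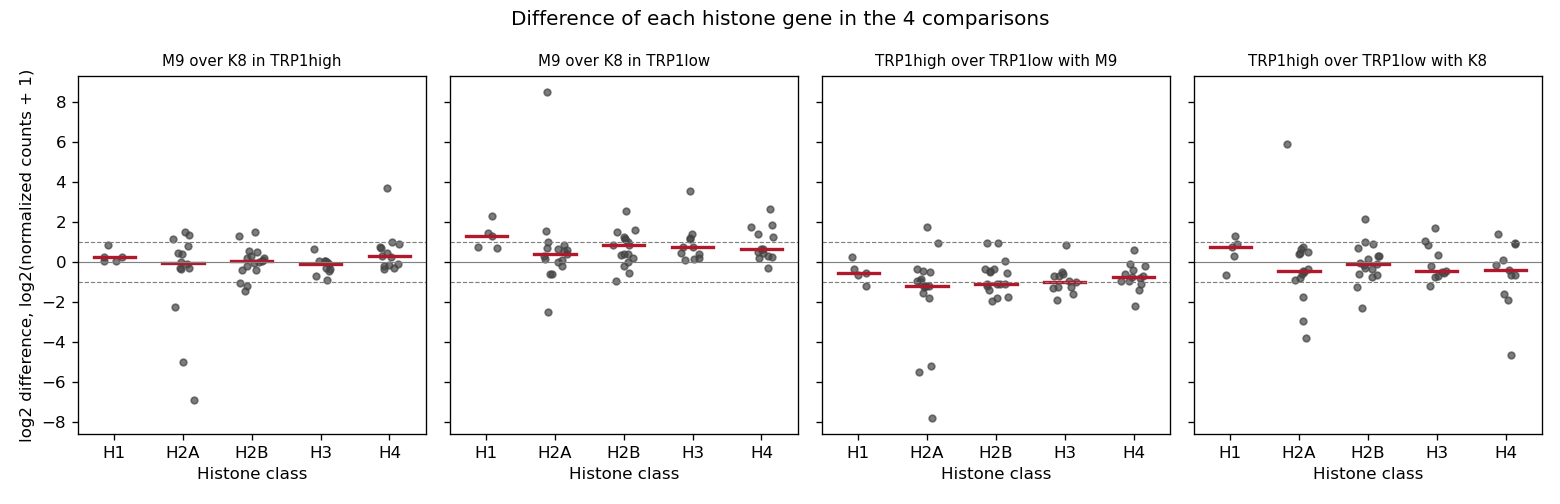
Log2 difference of each histone gene (point) by class in the 4 comparisons, on the log2(normalized counts + 1) scale; genes under 10 normalized counts in both libraries of a pair are not drawn. Red lines are class medians and dashed lines mark 2-fold; the points lie mainly above 0 for M9 over K8 in TRP1low cells and mainly below 0 for TRP1high over TRP1low with M9.

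The peptide comparisons and the receptor comparisons share libraries. The log2 ratio of the sums for M9 over K8 was 0.61 smaller in TRP1high than in TRP1low cells. Of the 64 genes, 27 had a peptide difference at least 2-fold smaller and 5 one at least 2-fold larger in TRP1high cells, against 9.68% and 9.07% of all genes tested (18.7% in all). Without replicates this difference of differences has no test.

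A single model over the 4 libraries, with receptor and peptide as additive terms (limma, 1 residual degree of freedom, Benjamini-Hochberg adjustment over 16102 genes), called 0 of the 64 genes for either term. Adjusted p ran from 0.581 to 0.996 for the peptide and from 0.368 to 0.961 for the receptor. At an unadjusted p under 0.05 there were 2 histone genes for the peptide, where 8.33% of all genes were, and 15 for the receptor, where 12.7% were. The model also called 0 of all genes after adjustment. Its residual is the disagreement between pairs of libraries and does not measure the spread between cultures.

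The H1 genes hold between 65.3% and 99.7% of their 31-base words to themselves, so their single values depend least on copies. Hist1h1b (chr13:21779883-21780625, minus strand) had 79.2 normalized counts with M9 and 43.9 with K8 in TRP1high cells, against 119 with M9 and 23.3 with K8 in TRP1low cells. It was lowest in TRP1low with K8 and higher with M9 under both receptors. The ratio was 5.10 in TRP1low cells, with a counting interval of 3.05 to 9.06, and 1.80 (1.23 to 2.67) in TRP1high cells. Hist1h1c (chr13:23738808-23740367, plus strand) had 205 normalized counts with M9 and 175 with K8 in TRP1high cells, and 175 with M9 and 71.1 with K8 in TRP1low cells. Only its TRP1low K8 value stood apart, 2.46-fold (1.79 to 3.43) under that with M9. Hist1h1d had 86.1 and 83.8 normalized counts in TRP1high cells with M9 and K8, and 135 and 49.2 in TRP1low cells with M9 and K8. In TRP1low cells it was 2.75-fold (1.89 to 4.09) higher with M9 than with K8, while the ratio in TRP1high cells was 1.03 (0.752 to 1.40). Hist1h1e had 104 and 101 normalized counts in TRP1high cells with M9 and K8, against 133 and 82.1 in TRP1low cells. Hist1h1a had 47.5 and 40.9 normalized counts in TRP1high cells with M9 and K8, and 111 and 65.7 in TRP1low cells, so here both TRP1low values were above both TRP1high values. H1 made up 9.76% of the summed histone counts in TRP1high with M9, 7.77% in TRP1high with K8, 6.91% in TRP1low with M9 and 4.27% in TRP1low with K8, shares that are not corrected for length.

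The H2A genes gave the most extreme single values, and these fell on copies. Hist1h2ao (chr13:21810465-21810944, plus strand) had 151 normalized counts with M9 and 58.9 with K8 in TRP1high cells, and 353 with M9 and 0 with K8 in TRP1low cells. Hist1h2ap (chr13:21833026-21833507, minus strand), whose coding sequence is the same, had 0 with M9 and 119 with K8 in TRP1high cells, and 35.7 with M9 and 211 with K8 in TRP1low cells. Where one of these copies was at 0, the other was at 151 or 211. Taken singly, Hist1h2ao in TRP1low cells was at least 86.1-fold higher with M9, against a floor of 3 reads in the K8 library. Hist1h2ap in TRP1high cells was at least 40.0-fold lower with M9, against the same floor in the M9 library. Added together they had 151 and 178 normalized counts in TRP1high cells with M9 and K8, and 389 and 211 in TRP1low cells with M9 and K8. The log2 ratio of that sum for M9 over K8 was -0.23 (-0.55 to 0.09) in TRP1high cells and 0.89 (0.61 to 1.17) in TRP1low cells.

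**Figure D3:**
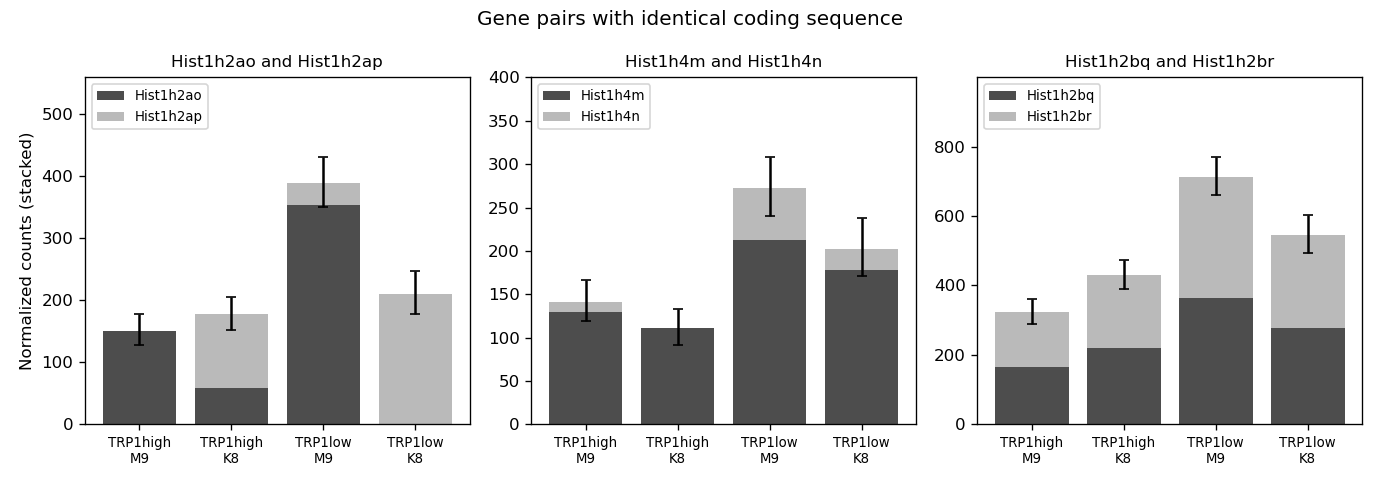
Normalized counts (linear axis from 0) of 3 pairs of genes with identical coding sequence, stacked by gene, in the 4 libraries. Error bars are exact 95% Poisson intervals of the sum; Hist1h2ao and Hist1h2ap trade places between libraries, while Hist1h2bq and Hist1h2br have nearly equal parts in each.

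Other copy pairs were divided differently. The H4 genes Hist1h4m and Hist1h4n summed to 141 and 111 normalized counts in TRP1high cells with M9 and K8, and to 273 and 202 in TRP1low cells with M9 and K8. Hist1h4n alone had 11.9 with M9 and 0 with K8 in TRP1high cells, and 59.8 with M9 and 24.6 with K8 in TRP1low cells. Its sum with Hist1h4m was lower in TRP1high cells with either peptide, by 0.95 with M9 and 0.87 with K8 on the log2 scale. The H2B genes Hist1h2bq and Hist1h2br had 164 and 159 normalized counts in TRP1high with M9, 219 and 211 in TRP1high with K8, 363 and 351 in TRP1low with M9 and 278 and 268 in TRP1low with K8. Both were lowest in TRP1high with M9 and highest in TRP1low with M9.

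The pseudogenes Hist1h2aj and Hist1h2al had their high values in the TRP1low libraries. Hist1h2aj had 0 and 31.9 normalized counts in TRP1high cells with M9 and K8, against 223 and 259 in TRP1low cells with M9 and K8. Hist1h2al had 0 and 3.99 in TRP1high cells, against 45.1 and 69.8 in TRP1low cells. They were at least 75.3-fold and at least 15.2-fold lower in TRP1high than in TRP1low cells with M9. Of their 31-base words, 6.52% and 18.1% occur in no other gene. Without both of them and without Hist1h2ao and Hist1h2ap, the other 60 genes had sums of 5193 and 5506 normalized counts in TRP1high cells with M9 and K8, and 9090 and 6280 in TRP1low cells, so the order of the libraries was the same. The 13 H2A genes linked by at least 95% transcript identity, among them Hist1h2ao and Hist1h2ap, had a summed log2 ratio of 0.34 for M9 over K8 in TRP1low cells and of -1.14 for TRP1high over TRP1low with M9.

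Among the H2A genes with the most counts, Hist1h2ai had 220 and 269.5 normalized counts in TRP1high cells with M9 and K8, and 537 and 512 in TRP1low cells. Both TRP1low values were above both TRP1high values, and the peptides were close under each receptor. Hist2h2aa2 had 154 and 116 in TRP1high cells with M9 and K8, and 215 and 148 in TRP1low cells, higher with M9 under both receptors. Of its 31-base words, 0% occur in no other gene and 100% also occur in genes outside the 64. Hist1h2ag had 153 and 193 in TRP1high cells, and 197 and 126 in TRP1low cells, so the peptides stood in opposite order. Hist1h2ah was at least 2-fold lower in TRP1high cells with both peptides, at 81.1 against 191 normalized counts with M9 and 36.9 against 129 with K8.

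Among the H2B genes, Hist1h2bk (chr13:22035870-22036345, plus strand) had 207 and 173 normalized counts in TRP1high cells with M9 and K8, and 481 and 267 in TRP1low cells with M9 and K8. Its value in TRP1low with M9 was above the other 3 libraries, 2.33-fold (1.97 to 2.75) above TRP1high with M9. Hist1h2bj had 265 and 274 in TRP1high cells, and 394 and 224 in TRP1low cells, highest in TRP1low with M9. It was 1.76-fold (1.46 to 2.13) higher with M9 than with K8 in TRP1low cells and 1.49-fold (1.27 to 1.75) lower in TRP1high than in TRP1low cells with M9. Hist1h2bf had 16.8 and 40.9 in TRP1high cells, against 68.2 and 101 in TRP1low cells. Hist1h2bp had 21.8 and 15.0 in TRP1high cells, against 76.6 and 78.0 in TRP1low cells. Both were at least 2-fold lower in TRP1high cells with each peptide.

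The H3 genes encode 3 distinct proteins. With M9, 11 of the 12 were lower in TRP1high cells, 6 of them at least 2-fold, beside 5.58% of all genes tested. Hist1h3h (chr13:21717659-21718069, plus strand) had 226 and 313 normalized counts in TRP1high cells with M9 and K8, and 707 and 428 in TRP1low cells. With M9 it was 3.13-fold (2.69 to 3.66) lower in TRP1high cells. Hist1h3c had 262 and 328 in TRP1high cells, and 534 and 492 in TRP1low cells. Hist1h3i had 132 and 127 in TRP1high cells, against 315 and 293 in TRP1low cells, at least 2-fold lower with both peptides. In these 3 genes both TRP1low values were above both TRP1high values. How many of all genes tested show such an order was not counted. Hist2h3c1 had 6.93 and 1.996 normalized counts in TRP1high cells, and 10.5 and 0 in TRP1low cells, where it was at least 2.56-fold higher with M9. Of its 31-base words, 0% occur in no other gene and 100% also occur in genes outside the 64.

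Among the H4 genes, all of which encode one protein, Hist1h4i (chr13:22040636-22041362, minus strand) went its own way. It had 478 and 608 normalized counts in TRP1high cells with M9 and K8, against 316 and 235 in TRP1low cells with M9 and K8. Both TRP1high values were above both TRP1low values, and with K8 the ratio was 2.58 (2.18 to 3.08). Hist1h4k, by contrast, had 208 and 240 in TRP1high cells, and 356 and 230 in TRP1low cells. Hist1h4b had 139 and 152 in TRP1high cells, against 271 and 242 in TRP1low cells, the reverse order of Hist1h4i. Hist1h4a had 13.9 and 7.99 in TRP1high cells, against 38.8 and 32.8 in TRP1low cells, at least 2-fold lower with both peptides. Hist2h4 had 18.8 and 8.98 in TRP1high cells, and 22.0 and 2.74 in TRP1low cells, where the ratio of M9 over K8 was 8.05 with a counting interval of 1.97 to 70.8, as the K8 value rests on 2 reads, under the floor of 3.

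**Figure D4:**
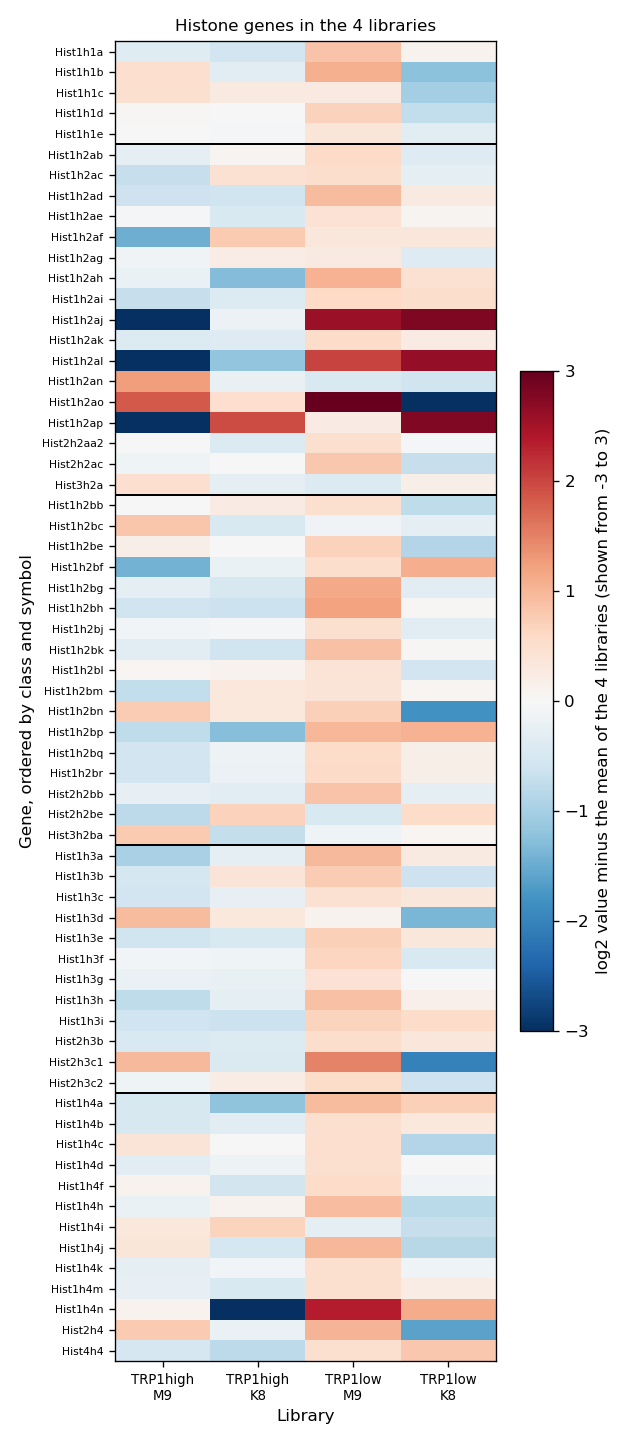
Value of each of the 64 histone genes in the 4 libraries as the log2 value minus the gene's mean over the libraries, with rows ordered by class and symbol and colours limited to -3 and 3. The TRP1low M9 column is red for most rows, and Hist1h2aj, Hist1h2al, Hist1h2ao, Hist1h2ap and Hist1h4n hold the strongest colours.

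Hist1h2ao and Hist1h4n were higher with M9 by 2-fold or more under both receptors, where 1.58% of all genes tested were, and Hist1h2ap was lower under both, against 1.57%. No histone gene was 2-fold apart in opposite directions under the receptors, against 1.14%. All 3 have a copy of identical coding sequence. Over both peptides, 8 genes were at least 2-fold lower in TRP1high cells each time, beside 2.29% of all genes tested: Hist1h2ah, Hist1h2aj, Hist1h2al, Hist1h2bf, Hist1h2bp, Hist1h3i, Hist1h4a and Hist1h4n. No histone gene was at least 2-fold higher in TRP1high cells with both peptides, against 3.24% of genes tested. In opposite directions with the peptides were 2, Hist1h2ao and Hist1h3b, against 1.06%.

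The receptor values went with how much sequence a gene has to itself. The 23 genes with at least 50% of their 31-base words to themselves summed to 1778 and 1729 normalized counts in TRP1high cells with M9 and K8, and to 2035 and 1242 in TRP1low cells with M9 and K8. Their log2 ratio for TRP1high over TRP1low was -0.19 with M9 and 0.48 with K8, while that for M9 over K8 was 0.04 in TRP1high and 0.71 in TRP1low cells. In TRP1low cells, 10 of the 23 were higher with M9 by 2-fold or more and 0 were lower, beside 7.67% and 7.43% of all genes tested. With M9, 5 of the 23 were at least 2-fold lower in TRP1high cells and so were 23 of the 41 genes with less sequence of their own, beside 5.58% of all genes tested. Median log2 differences for the receptors with M9 were -0.50 in the 23 and -1.12 in the 41. With K8 they were 0.22 over the 20 of the 23 that reached 10 normalized counts and -0.35 over 39 of the 41. This split was chosen after the values were seen, and its difference was not tested.

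**Figure D5:**
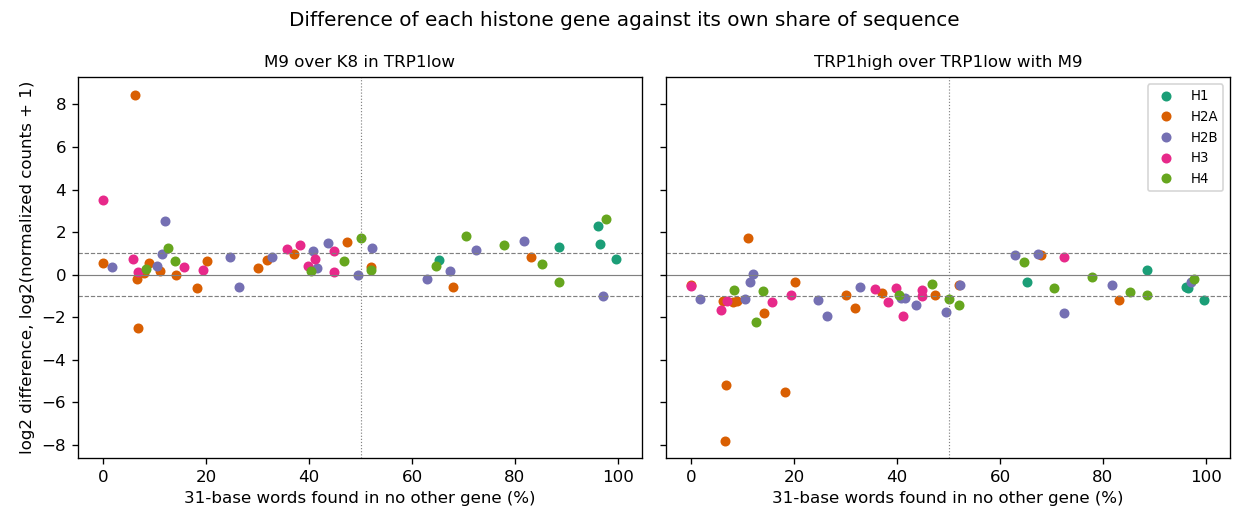
Log2 difference of each histone gene (vertical, log2(normalized counts + 1) scale) against the percent of its 31-base words found in no other gene (horizontal), coloured by class, for M9 over K8 in TRP1low cells and TRP1high over TRP1low with M9. The differences past 4-fold in the receptor panel all lie left of the dotted line at 50%, and the H1 genes lie right of it.

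The annotated 3′ end went with a like division. In 18 genes an annotated transcript ran on for over 200 bases after the stem-loop, a form that can carry a poly(A) tail. Most of the 18 are also among the 23 genes with at least 50% own 31-base words, so this split and the former overlap. In TRP1low cells 10 of the 18 were higher with M9 by 2-fold or more, beside 7.67% of all genes tested, and the 17 that reached 10 normalized counts had a median log2 difference of 1.15. It was 0.66 in the 24 genes whose transcripts end near the stem-loop and 0.34 in the 22 with no stem-loop in the annotated transcript. For TRP1high over TRP1low with M9, the medians were -0.58, -1.07 and -1.12 in that order, and with K8 they were 0.55, -0.44 and -0.34. This split was made after values were seen and its difference was not tested. The part of poly(A) selection was not tested.

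Neighbouring genes could be set side by side in 12 H2A and H2B pairs that are transcribed away from each other, with 176 to 302 bases between their starts. With M9, both genes of 9 pairs were lower in TRP1high cells, both of 0 pairs were higher and 3 pairs were split. For M9 over K8 in TRP1low cells, both genes of 7 pairs were above 0, both of 0 pairs below and 5 pairs were split. In TRP1high cells the counts for the peptide were 3, 6 and 3, and for TRP1high over TRP1low with K8 they were 2, 4 and 6. Taken singly with M9, 15 of the 17 H2A and 14 of the 17 H2B genes were lower in TRP1high cells. For M9 over K8 in TRP1low cells, 12 of the 17 H2A and 13 of the 17 H2B genes were above 0. Whether paired genes go together more often than other genes was not tested.

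Promoters are shown for 1 H1 and 1 H2B gene because an element is known for each of these classes. RefSeq promoters (GRCm38.p6), from 250 bases before to 50 after the start, were matched for 57 of the 64 genes, and 4 motifs were searched on both strands. Promoters of an H2A and an H2B gene transcribed away from each other can overlap, so both classes can count the same match. The octamer ATTTGCAT, bound by OCT1 at H2B promoters, was found in 5 of 15 H2B and 6 of 15 H2A promoters, in none of H1, H3 or H4 and in 1.74% of all 32851 promoters. The H1 box AAACACA was found in 4 of 5 H1, 1 of 15 H2A and 1 of 15 H2B promoters, and in 7.18% of all. CCAAT was present in 5 of 5 H1, 15 of 15 H2A, 15 of 15 H2B, 10 of 10 H3 and 3 of 12 H4 promoters, and in 37.4% of all. TATAAA was present in 4 of 5 H1, 8 of 15 H2A, 7 of 15 H2B, 4 of 10 H3 and 8 of 12 H4 promoters, and in 13.6% of all. Each run of capitals is a match on either strand, and no matches overlap in these sequences.
Hist1h1b, chr13:21780576-21780875, minus strand: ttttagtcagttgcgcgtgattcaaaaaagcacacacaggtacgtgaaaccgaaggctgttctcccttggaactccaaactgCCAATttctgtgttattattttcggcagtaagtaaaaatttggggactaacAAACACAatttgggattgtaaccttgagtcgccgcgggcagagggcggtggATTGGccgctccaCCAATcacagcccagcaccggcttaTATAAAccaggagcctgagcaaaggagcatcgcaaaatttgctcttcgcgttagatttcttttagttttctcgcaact
Hist1h2bk, chr13:22035571-22035870, plus strand: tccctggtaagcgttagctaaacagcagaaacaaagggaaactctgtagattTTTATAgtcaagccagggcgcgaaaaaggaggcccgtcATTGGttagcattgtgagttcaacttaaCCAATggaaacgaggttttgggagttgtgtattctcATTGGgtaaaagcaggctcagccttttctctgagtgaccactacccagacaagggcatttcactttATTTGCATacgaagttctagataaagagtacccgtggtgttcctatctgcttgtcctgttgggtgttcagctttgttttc

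The list medians of genes that make or handle histone mRNA lay near 0. Of 25 measured genes of histone mRNA transcription and processing, 0 were at least 2-fold apart between the peptides in TRP1high cells. In TRP1low cells 2 were, both higher with M9. Over all genes tested, 9.87% and 15.1% lay that far apart, in TRP1low cells 7.67% higher with M9. The median log2 differences of the 25 genes were 0.00 and 0.03. Slbp, which encodes the stem-loop binding protein, had log2 values of 12.66 and 12.93 in TRP1high cells with M9 and K8, and 12.88 and 13.17 in TRP1low cells. Npat, a coactivator at histone genes, had 10.47 and 10.38 in TRP1high cells, and 10.33 and 10.27 in TRP1low cells. Casp8ap2, whose protein takes part in cutting the histone 3′ end, had 10.60 and 10.90 in TRP1high cells, and 10.19 and 10.86 in TRP1low cells. The 2 list genes at least 2-fold higher in TRP1high cells with both peptides were Sympk and Upf1, beside 3.24% of all genes tested. Sympk, a scaffold of the cleavage complex, had log2 values of 13.08 and 12.96 in TRP1high cells with M9 and K8, against 11.77 and 10.62 in TRP1low cells. Upf1, a helicase of mRNA decay that also acts on histone mRNA, had 11.70 and 12.03 in TRP1high cells, against 10.60 and 9.86 in TRP1low cells.

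None of 26 S phase genes was 2-fold apart in any of the 4 comparisons, where 9.87% to 18.9% of all genes tested were. Their median log2 difference was -0.21 for M9 over K8 in TRP1high and -0.03 in TRP1low cells. For TRP1high over TRP1low it was -0.21 with M9, where 22 of 26 were below 0, and 0.02 with K8. In 25 of the 26 the peptide difference was smaller in TRP1high than in TRP1low cells, as it was in 53 of the 64 histone genes. Over all genes tested, 7565 of the 13871 that reached the minimum went that way. The 20 histone chaperones measured had medians of -0.17 and -0.11 for M9 over K8 in TRP1high and TRP1low cells. Their medians were -0.04 and 0.06 for TRP1high over TRP1low with M9 and K8. In that order 0, 0, 0 and 2 genes were at least 2-fold higher, beside 5.14%, 7.67%, 7.37% and 10.6% of all genes tested. At least 2-fold lower were 0, against 4.73%, 7.43%, 5.58% and 8.35%.

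The replication-independent variants are, for the most part, made throughout the cell cycle and from polyadenylated mRNA. Of their 11 measured genes, 10 reached the minimum and had median log2 differences of 0.26 and 0.27 for M9 over K8 in TRP1high and TRP1low cells, and of 0.45 and 0.21 for TRP1high over TRP1low with M9 and K8. H2afz, the gene of H2A.Z, had log2 values of 14.52 and 14.42 in TRP1high cells with M9 and K8, and 14.68 and 14.58 in TRP1low cells. H2afx, whose protein marks DNA breaks, had 12.17 and 12.04 in TRP1high cells, and 12.13 and 11.66 in TRP1low cells. The linker variants H1f0 and H1fx were at least 2-fold higher in TRP1high cells with both peptides, beside 3.24% of all genes tested. H1f0 had log2 values of 10.02 and 9.46 in TRP1high cells with M9 and K8, against 8.98 and 8.16 in TRP1low cells. H1fx had 4.99 and 4.64 in TRP1high cells, against 3.87 and 1.90 in TRP1low cells, where its K8 value was under the floor of 3 reads.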

How the data were processed

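The authors deposited log2 normalized counts per gene symbol and library, per the file headers. Low values stood at whole multiples of 1 step per library after the log was undone, so they were read as log2(count divided by a factor, plus 1). The submitters' processing notes name Salmon 0.8.2, DESeq2 1.20.0 and mm10. Their annotation and settings, and any poly(A) selection, were not stated. Each step gave estimated reads (29.6 to 41.5 M a library). Of the values above 0 and under 50 estimated reads, 55.2% to 56.5% lay within 0.01 of a whole read, so no count model was run. Of the histone values, 95.3% lay that close in each library. Groups came from the sample titles. Tested were 16102 genes whose mean reached 1 normalized count. Genes were counted as apart at 2-fold on the log2(value + 1) scale where either library of the pair reached 10 normalized counts; printed folds are ratios without the added 1. Intervals are 95% exact (Clopper-Pearson) on estimated reads and cover counting error only, since reads carry no molecular identifiers. limma 3.58.1 in R 4.3.3 fitted the additive model, with trend and robust off; its scripts were tested on simulated data. Sequences were compared with edlib 1.3.9.post1 in Python 3.11.15. The members, lists and named genes were chosen with earlier results of these data known. Named were the 3 genes of each class with the most counts, all H1 genes, the 3 largest differences per comparison, genes 2-fold apart the same way in both pairs, and Hist1h2ao and Hist1h2ap.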

Additional observations from a re-analysis of the deposited data

Results flagged for a closer look

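In 7 results the effect had opposite directions in the groups compared, where both 95% counting intervals of a sum left out 0 or a gene was at least 2-fold apart both ways; none of these differences could be tested, as each group held 1 library. The sum of the 64 histone genes was lower with M9 in TRP1high cells and higher with M9 in TRP1low cells, a difference of -0.61 between the log2 ratios. The H3 sum did the same, with a difference of -0.76, and so did the H4 sum, with -0.61. Without Hist1h4i, however, the H4 log2 ratio in TRP1high cells is 0.044, above 0 as in TRP1low cells. The 64-gene log2 ratio in TRP1high cells was small, at -0.10. It was 0.04 (-0.06 to 0.14) over the 23 genes with at least 50% of their 31-base words to themselves, so its direction did not hold there. For TRP1high over TRP1low, the H1 sum was lower with M9 and higher with K8, with a difference of -0.98, and the H4 sum likewise, with -0.61; the H4 value with K8 turns below 0 without Hist1h4i. Hist1h2ao was lower in TRP1high cells with M9 and higher with K8, a difference of -7.12. Hist1h3b, an H3 gene, had 26.7 and 50.9 normalized counts in TRP1high cells with M9 and K8, and 66.1 and 24.6 in TRP1low cells, a difference of -2.29.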

How the results depend on the processing

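No paired analysis was possible because each group held 1 library, and for the same reason no replicate could be left out. Counts of histone genes apart are given for M9 over K8 in TRP1high (12 of 64), M9 over K8 in TRP1low (21), TRP1high over TRP1low with M9 (29), the same with K8 (16) and the difference of the peptide differences (32). In that order, 9.87%, 15.1%, 12.9%, 18.9% and 18.7% of all genes tested lay at least 2-fold apart. Without genes that have a near-identical copy among the 64, which leaves 10 genes, the histone counts were 2, 5, 2, 1 and 7. Genes outside the 64 were not searched for such copies. Of these 10 genes, Hist2h3c1 shares 100% and Hist2h2bb 59.3% of their 31-base words with genes outside the 64. Among the 23 genes with at least 50% own 31-base words the counts of genes apart were 3, 10, 5, 6 and 12. At 1.5-fold the first 4 were 21, 37, 48 and 36, and with a minimum of 50 normalized counts the first was 7. Shares of all genes tested at those limits were not counted. For TRP1high over TRP1low with K8 the median of -0.23 became 0.14 without near-identical copies and 0.22 among the 23 genes. Without Hist1h4i, the H4 sum turned to 0.044 for M9 over K8 in TRP1high cells and to -0.33 for TRP1high over TRP1low with K8. Fewer genes entered these 2 sums and medians; the cause of the change in direction was not tested. The other 25 alternative counts, those of limma included, stayed within 1.5 times. limma called 0 histone genes under each alternative; all genes called for the receptor were 26 with log2(value + 8) and 260 with the trend on. With 1 library a group, depth limits low genes: 3 reads lie at log2 1.99 to 2.35.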
